A study of Homo sapiens with 3 samples.

Results

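Proteasome genes were compared between cultures of the established human melanoma line A375 kept in serum-free DMEM (control) or exposed to young (YA-A375) or old (OA-A375) adipocyte secretome, the medium conditioned by cultured adipocytes. The exposure lasted 24 h per the series description, while the treatment protocol allows for a longer one. The control medium was not conditioned by any cell, so YA and OA differ from control in everything that adipocytes release or use up. Poly(A) RNA was sequenced from 1 library per group, so no difference below has a replicate check, no test could be run and no p-value is given. A gene was taken as a member when it was annotated as protein-coding and its symbol was PSM, a letter from A to G and a number. The rule used no measured value and found 48 of the 58037 genes in the table, of which 19950 were protein-coding. The members were 31 constitutive subunits of the core, base and lid, 5 immunoproteasome and PA28 genes (PSMB8, PSMB9, PSMB10, PSME1 and PSME2) and 12 others, which were assembly chaperones, further regulators and tissue-specific subunits.

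The proteasome is the protease that degrades most ubiquitin-tagged proteins of the cytosol and nucleus. Its 20S core is a barrel of alpha and beta rings, with the proteolytic sites of PSMB5, PSMB6 and PSMB7 facing the inner chamber. The 19S particle caps the core, with a base of ATPases that unfold the substrate and a lid that removes the ubiquitin chain. In immune cells and after interferon exposure, PSMB8, PSMB9 and PSMB10 take the places of PSMB5, PSMB6 and PSMB7, and PSME1 with PSME2 forms the activator PA28. That form is known for producing peptides for presentation on MHC class I. Cells short of proteasome activity are known to raise the constitutive subunit genes together through the factor NFE2L1, which binds antioxidant response elements in their promoters.

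Promoter sequences are shown first because constitutive and immunoproteasome genes are known to answer to different factors. RefSeq windows on GRCh38.p14, from 250 bases before to 50 bases after an annotated start, were available for 42 of the 48 members. PSMA7, PSMB1, PSMB6, PSMB7, PSMD4 and PSMG3 had no entry. The core of the interferon-stimulated response element, searched on both strands, was found in the windows of 4 of the 5 immunoproteasome and PA28 genes and in those of 2 of the 26 constitutive genes with a window, PSMA4 and PSMB4. The remaining match was PSMG4. Over all windows it stood in 7 of 51 for the members (13.7%) and in 3.57% of the 35116 windows of all genes. The runs below read 5′ to 3′ on the gene's strand, with the match in capitals, and TTTCGCTTTC is the same core on the opposite strand.
PSMB8, chr6:32844032-32844061: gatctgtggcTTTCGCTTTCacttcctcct
PSMB10, chr16:67936851-67936896: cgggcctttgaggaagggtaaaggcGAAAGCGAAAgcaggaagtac
PSME1, chr14:24136189-24136218: gccctaccgcTTTCGCTTTCccttcgcggt
PSME2, chr14:24146611-24146663: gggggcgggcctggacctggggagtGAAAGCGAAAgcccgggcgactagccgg
PSMB8 and PSME2 are genes of the minus strand, as is PSMB10, and PSME1 lies on the plus strand. All 4 runs hold the identical core letters, and the match begins 28 bases before the start in PSME2 and 21 before it in PSMB10, while it spans the start in PSMB8 and follows it in PSME1. The window of PSMB9 held no such letters.

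The antioxidant response core TGACNNNGC was found in 15 of the 51 member windows (29.4%) and in 13.3% of all windows. These 15 genes were 7 of the 26 constitutive genes with a window, 3 of the 5 immunoproteasome and PA28 genes, and 5 others. The first 3 runs below are from constitutive genes whose level was at least 1.2-fold higher in OA than in control. The run of PSMB9, an immunoproteasome gene, holds the same core on the opposite strand. PSMD1, also past that fold, and PSMA4, PSMC4 and PSMC5, which were not, hold the string too and are not shown.
PSMB3, chr17:38752612-38752670, plus strand: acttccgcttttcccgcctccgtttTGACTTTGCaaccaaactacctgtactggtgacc
PSMD3, chr17:39980745-39980803, plus strand: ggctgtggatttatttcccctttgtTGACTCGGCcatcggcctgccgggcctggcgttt
PSMD12, chr17:67366709-67366767, minus strand: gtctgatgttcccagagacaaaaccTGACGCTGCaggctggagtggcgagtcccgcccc
PSMB9, chr6:32854019-32854077, plus strand: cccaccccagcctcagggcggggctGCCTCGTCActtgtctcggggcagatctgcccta
The string was present in 4 of the 10 genes with a window that were at least 1.2-fold higher in OA. All 10 are constitutive, and the share over the constitutive genes was 7 of 26. The interferon core was in 0 of those 10, beside 2 of the 26 constitutive genes. Whether either string bears on the levels in OA was not tested. In all, 10 strings were searched on both strands, and further spellings had been looked at before these were chosen. The ETS string CCGGAAG stood in 29.4% of member windows beside 10.3% of all windows, CCAAT in 39.2% beside 34.6%, the STAT string TTCNNNGAA in 15.7% beside 7.66% and the YY1 string GCCATNTTG in 7.84% beside 2.92%. The AP-1 string TGANTCA, which can overlap TGACNNNGC, stood in 5.88% beside 7.71%, TGATGNAA in 1.96% beside 3.62%, and an NF-kB site in 1.96% beside 1.91%, or by a stricter spelling in 0% beside 0.558%. A match describes letters in a window and shows no binding.

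The libraries held 18089008 to 21448195 counts, OA being the smallest, and were scaled by size factors of 1.06, 1.06 and 0.891 for control, YA and OA. Levels below are these normalised counts unless another scale is named. The label of the cells was checked against 8 melanocyte lineage markers, of which 2 passed the expression filter, MITF at 1151, 722 and 989 for control, YA and OA and S100B at 794, 559 and 617, while SOX10 had 0 counts in all 3 libraries. Of 8 adipocyte markers, 4 passed the filter. Summed levels over the 8 were 650, 1180 and 484 in the same order, with LEP at 0 and ADIPOQ at 0 to 1 count. Of 6 fibroblast markers, 5 passed, and the summed levels were 703, 893 and 621, led by PDGFRB. Of 8 leukocyte markers, 2 passed. The summed levels were 181, 232 and 131, led by LYZ, with CD3E at 0 and PTPRC at 0 to 1 count. The adipocyte, fibroblast and leukocyte sums were each highest in YA, but single markers differed. Among adipocyte markers, PLIN4 and LPL were highest in YA, and CIDEC and CFD in OA. DCN was at 12.2, 130 and 26.9 in control, YA and OA, while PDGFRA was lowest in YA, at 71.6, 18.9 and 57.2. LAPTM5 was at 18.8, 67.1 and 14.6 in the same order, whereas LYZ was highest in control, at 139, 135 and 96.5. The part of other cells or of free RNA in the results was not tested beyond these levels.

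Proteasome transcripts made up a larger share of the OA library than of the others. The 48 members summed to 117670 counts or 0.549% of the control library (0.546 to 0.552, Wilson), to 114110 or 0.536% of the YA library (0.532 to 0.539) and to 112038 or 0.619% of the OA library (0.616 to 0.623). OA stood above both other libraries, whose shares lay close together. These intervals, and all others here, cover counting error only and compare libraries rather than conditions. After scaling, the summed OA level was 1.13-fold that of control (1.125 to 1.14), and the summed YA level 0.973-fold (0.965 to 0.981). For OA the constitutive sum was 1.16-fold that of control (1.147 to 1.17), whereas the sum over the 5 immunoproteasome and PA28 genes was 1.01-fold (0.972 to 1.06).

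**Figure D1:**
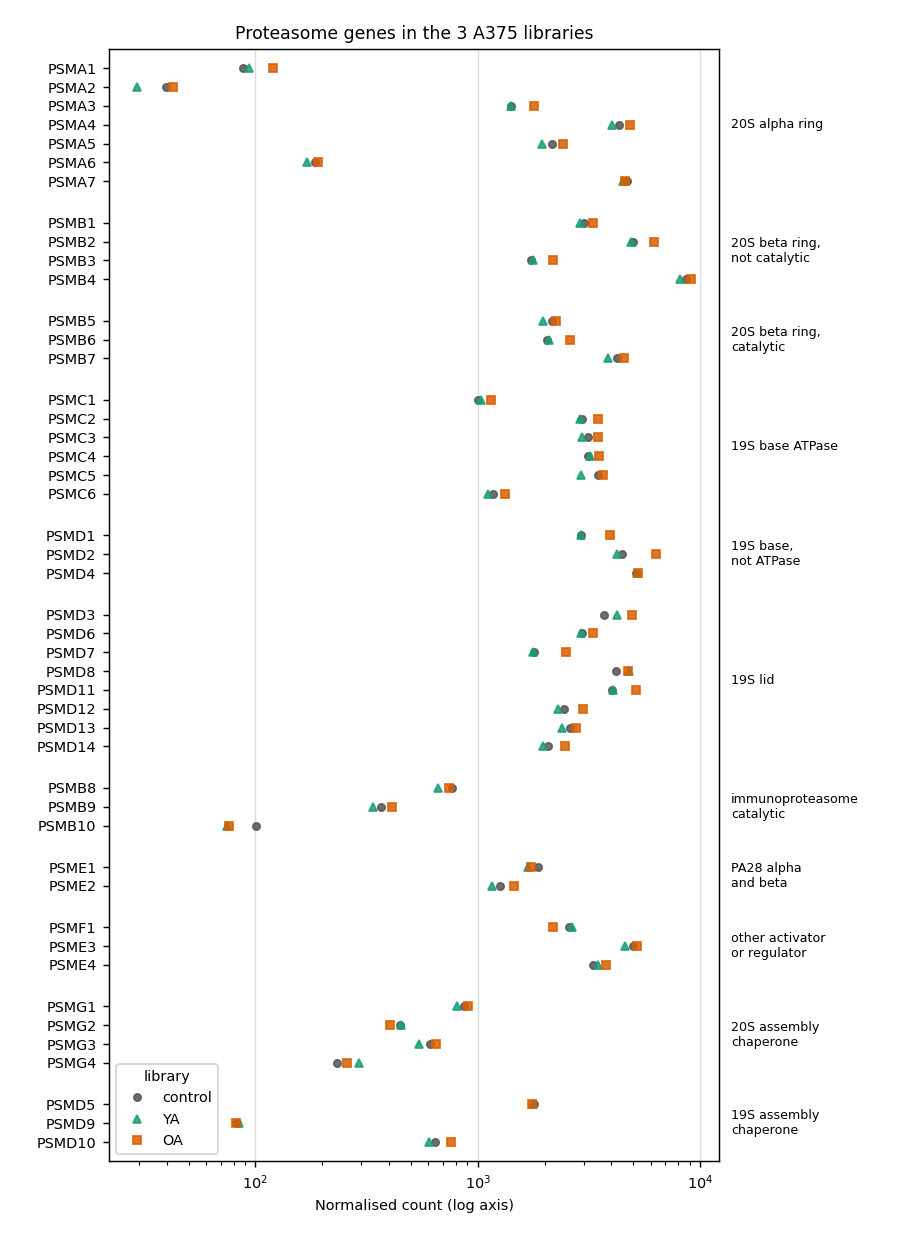
Normalised count (log axis) of the 46 members that passed the filter in the control, YA and OA libraries, grouped by role, with 1 point per library. OA is the rightmost point for most constitutive subunits, PSMB4 is highest at 8114 to 9135 and PSMA2 lowest at 29.3 to 42.7.

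Of the 48 members, 46 passed the filter of a mean normalised count of at least 20. PSMA8, an alpha subunit known from testis, and PSMB11, a beta subunit known from thymic epithelium, had 0 counts in all 3 libraries, which allows a level of up to 0.140, 0.141 and 0.166 CPM (counts per 1e6) in control, YA and OA. Per kb of transcript the mean level of the tested members was lowest for PSMA2, at 19.7 to 28.7 over the libraries, and highest for PSMB4, a structural beta subunit, at a mean of 8968. After PSMB4 came the PA28 gamma gene PSME3 at 4936, PSMA7 at 4615, PSMB7 at 4294 and PSMD4 at 3861. This order rests on the length of a single annotated transcript per gene, 998 bases for PSME3, and other transcripts were not tried. The alpha subunits of one ring are incorporated in equal numbers, yet PSMA1 (66.7 per kb), PSMA2 and PSMA6 (177 per kb) were listed far below PSMA3 (1586 per kb) and PSMA7. PSMD9 (29.8 per kb) and PSMB10 (68.9 per kb) were also low.

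These 5 genes, with PSMC1 and PSMD7, were the 7 members that shared over 40% of their principal transcript with exons of another annotated gene, while 33 members shared none. PSMA6 shared 81.0%, PSMC1 82.1%, PSMA2 54.1%, PSMA1 53.2%, PSMD7 50.4%, PSMB10 45.3% and PSMD9 43.8%. For PSMA1, PSMA2 and PSMA6 the overlapping gene with most shared bases is annotated on the same strand and had 0 to 1 count. Levels of these 7 genes are therefore uncertain, and a fold change within one gene is less exposed to this than a comparison of levels between genes. Whether the overlap set the low levels was not tested. PSMC1 and PSMD7 share bases with genes on the opposite strand and were at 239 and 1212 per kb, PSMC1 being the lowest of the ATPases.

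**Figure D2:**
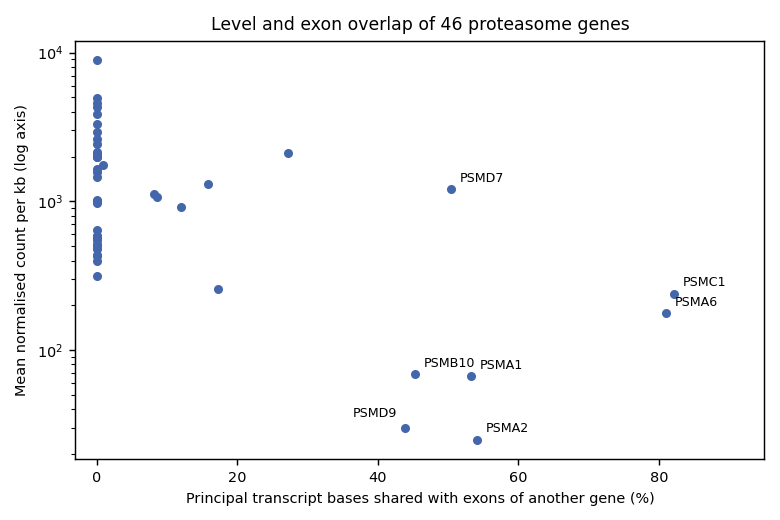
Mean level per kb of transcript (log axis) against the share of the principal transcript's bases that lie in exons of another gene, for the tested members. The 5 lowest members, PSMA1, PSMA2, PSMA6, PSMB10 and PSMD9, all share over 40% of their bases.

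The comparison of OA with control asked where the proteasome genes stood after exposure to the old secretome. At 1.2-fold or more, 11 of the 46 tested members were higher in OA and 1 was lower, beside 21.1% and 21.5% of all 14413 genes tested. The 11 members were 23.9% of those tested, close to the background share, so the number past 1.2-fold does not set the members apart on the higher side. On the lower side, 1 member was 2.17%. The log2 fold change was above 0 in 38 of 46 members (82.6%), beside 50.9% of all genes tested, and its median was 0.16 beside 0.01 over all genes. The SD of the log2 fold change over members was 0.18, beside 0.58 over all genes, so the members lay in a narrow band shifted by a small amount. The interval of the fold change lay wholly above 1 in 29 members and wholly below in 2, beside 26.6% and 24.7% of all genes. The members were more deeply counted than most genes, with a median level of 2212 beside 484, and their intervals are narrower for that reason. Deeper counting also lowers the SD of fold changes, and its part in the smaller SD of the members was not tested.

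The higher values lay among the constitutive subunits. All 11 members past 1.2-fold in OA were constitutive, 30 of the 31 constitutive subunits were above control with a median log2 fold change of 0.17, and the interval lay above 1 in 25 of them and below 1 in 0. OA was the highest of the 3 libraries for 29 of 31 (93.5%), beside 38.5% of all genes tested, and the lowest for none. The 2 exceptions were PSMA7, highest in control at 4687 beside 4503 in YA and 4598 in OA, and PSMD8, highest in YA. By contrast, OA was highest for 2 of the 5 immunoproteasome and PA28 genes and for 5 of the 10 other members that were tested. This difference between the classes was not tested.

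**Figure D3:**
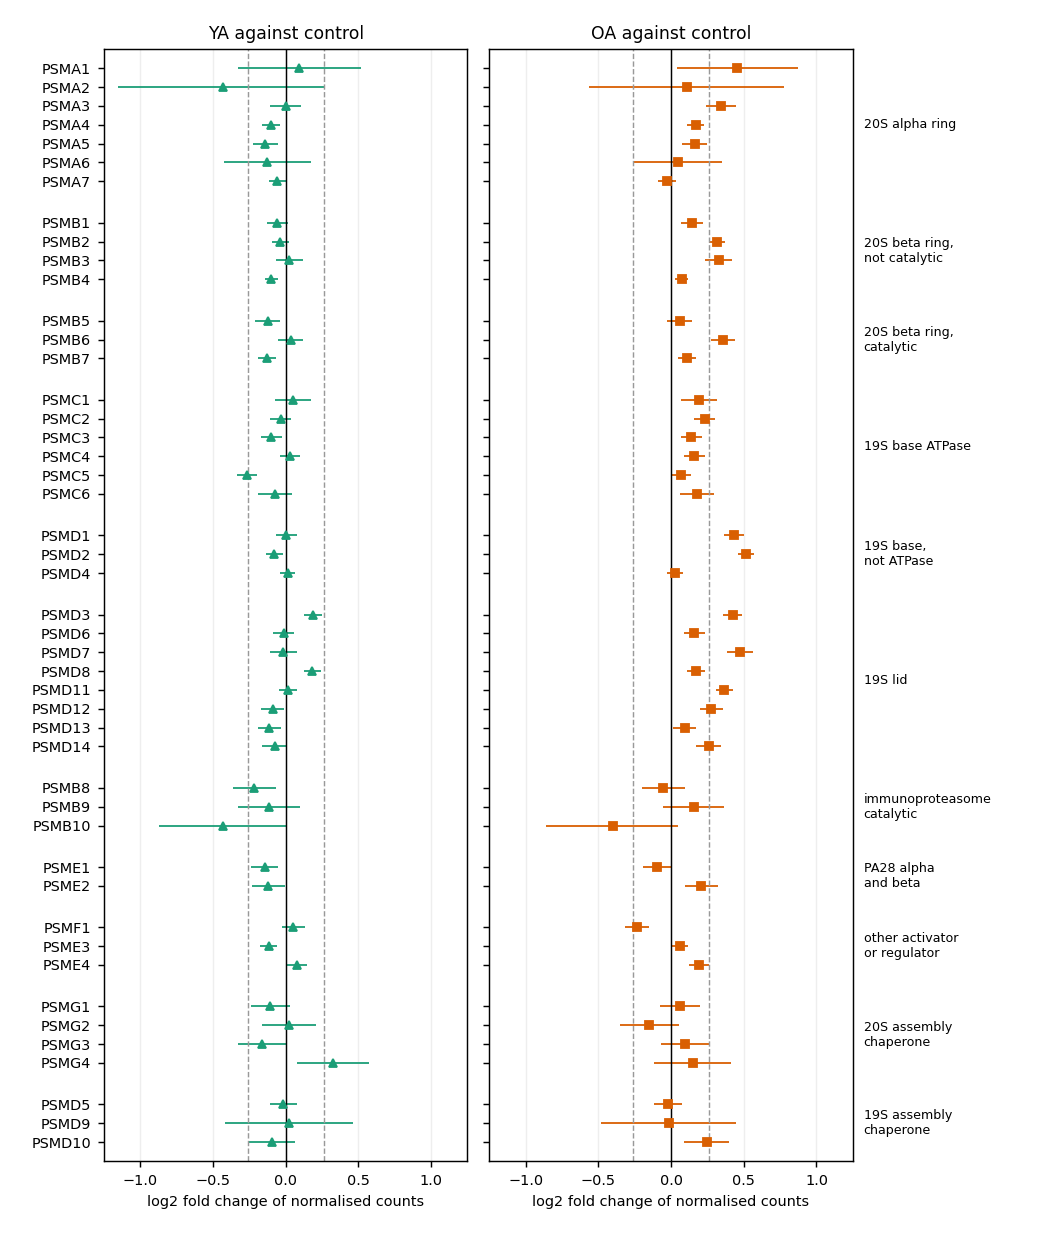
Log2 fold change of normalised counts, without a pseudocount, for YA against control (left) and OA against control (right), with 95% counting intervals; dashed lines mark 1.2-fold. In OA the constitutive subunits lie right of 0 except PSMA7, while in YA most members lie just left of 0, and both panels use the same control library.

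The non-ATPase base subunits and the lid had the highest role medians in OA against control, 0.43 and 0.27 on the log2 scale. PSMD2 and PSMD1, the large scaffold subunits of the base that hold ubiquitin receptors, were the base members past 1.2-fold. PSMD2 was at 4462 (control), 4226 (YA) and 6367 (OA), 1.43-fold of control in OA (1.37 to 1.48). PSMD1 was at 2918, 2922 and 3943 in control, YA and OA, 1.35-fold of control (1.29 to 1.42). For both genes the control and YA libraries lay close together and OA stood apart. PSMD4, the ubiquitin receptor of the base, was level across the libraries at 5164 (control), 5209 (YA) and 5262 (OA).

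Across the 8 lid genes the median was 0.27 (log2, OA against control), with the interval above 1 in 8 of 8 and 4 past 1.2-fold. PSMD7, the partner of the deubiquitinase PSMD14, was at 1798, 1777 and 2496 in control, YA and OA, 1.39-fold of control (1.31 to 1.48). PSMD3 was at 3709, 4228 and 4972 in the same order, 1.34-fold (1.28 to 1.40), and PSMD11 at 4019, 4055 and 5181, 1.29-fold (1.24 to 1.34). PSMD12 was at 2450, 2303 and 2970, 1.21-fold (1.15 to 1.28). In YA against control, PSMD3 was 1.14-fold (1.09 to 1.19), while the intervals of PSMD7 and PSMD11 included 1 and that of PSMD12 lay below it. PSMD14, which cleaves ubiquitin chains from the substrate, was at 2075 (control), 1970 (YA) and 2481 (OA) and stayed just under the threshold at 1.196-fold (1.13 to 1.27). The remaining lid genes, PSMD6, PSMD8 and PSMD13, were 1.07-fold to 1.13-fold of control in OA.

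The 6 base ATPases, PSMC1 to PSMC6, which form the ring that unfolds the substrate, were all above control in OA with 0 past 1.2-fold. Their log2 fold change ran from 0.07 for PSMC5 to 0.23 for PSMC2, with a median of 0.17. PSMC2 was at 2955, 2883 and 3471 in control, YA and OA. The ATPase range in OA was narrower than that of the lid, with an SD of 0.06 beside 0.13 on the log2 scale.

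In the 20S core, the OA median (log2) was 0.23 for the structural beta subunits PSMB1, PSMB2, PSMB3 and PSMB4 and 0.16 for the alpha subunits PSMA1 to PSMA7. PSMB3 was at 1735 (control), 1765 (YA) and 2177 (OA), 1.25-fold of control (1.18 to 1.34). PSMB2 was at 5001, 4877 and 6219, 1.24-fold (1.197 to 1.29). The control and YA levels of both lay within 3% of each other while OA was the highest. PSMA3 was the best-counted alpha subunit past 1.2-fold, at 1412, 1411 and 1790 in control, YA and OA, 1.27-fold (1.18 to 1.36). PSMA1 was at 87.6, 93.6 and 120, 1.37-fold with a wide interval (1.03 to 1.83) from 93 to 107 counts per library. Of the other alpha genes, PSMA4 was at 4323, 4025 and 4863 and PSMA5 at 2154, 1954 and 2410, both about 1.12-fold of control in OA. PSMA2 at 39.6, 29.3 and 42.7 had an interval that included 1 in each comparison, and so did PSMA6 at 186, 170 and 192.

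The 3 catalytic subunits were set beside the immunoproteasome subunits that replace them. PSMB5, with chymotrypsin-like activity, was at 2151 (control), 1975 (YA) and 2243 (OA), 1.04-fold of control in OA (0.981 to 1.11). PSMB8, which takes its place, was at 767, 661 and 740, 0.964-fold (0.869 to 1.07). Both intervals included 1. PSMB6, with caspase-like activity, was at 2041, 2092 and 2613, 1.28-fold (1.21 to 1.36), and PSMB9 at 367, 339 and 410, 1.11-fold (0.964 to 1.29). PSMB7, with trypsin-like activity, was at 4215, 3853 and 4555, 1.08-fold (1.04 to 1.13), while PSMB10 was at 101, 74.7 and 76.3, 0.757-fold (0.550 to 1.04). PSMB10 was thus the lowest of the members in OA against control, on 107 counts in control and 68 in OA.

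The share of the immuno form within each pair was lower in both YA and OA than in control for all 3 pairs, and the intervals of the libraries overlapped. Both secretomes are set against the same control library here. Overlap of separate intervals does not show that the shares are equal, and the differences were not tested. PSMB8 made up 26.3% of its counts with PSMB5 in the control library (24.8 to 27.9, Wilson), beside 25.1% for YA (23.5 to 26.7) and 24.8% for OA (23.2 to 26.5). PSMB9 made up 15.3% with PSMB6 for control (13.9 to 16.7), 14.0% for YA (12.7 to 15.3) and 13.6% for OA (12.3 to 14.9). PSMB10 made up 2.34% with PSMB7 for control (1.94 to 2.82), 1.90% for YA (1.53 to 2.36) and 1.65% for OA (1.30 to 2.08). Summed over the pairs the share was 12.8% for control (12.178 to 13.5), 11.9% for YA (11.3 to 12.6) and 11.5% for OA (10.9 to 12.182). The intervals of control and OA overlapped by a margin in the third decimal. These shares are taken within a library and do not depend on the scaling between libraries.

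**Figure D4:**
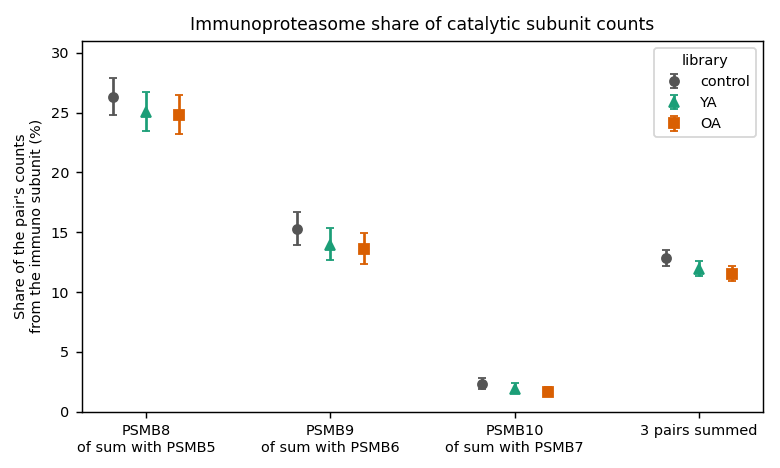
Share of the counts of each catalytic pair that came from the immuno subunit, in percent, with 95% Wilson intervals, for the 3 libraries. PSMB8 lies near 25%, PSMB9 near 14% and PSMB10 near 2%, and within every pair the intervals of the libraries overlap. Counts are not divided by transcript length, and the level of PSMB10 is uncertain because of its exon overlap.

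The PA28 genes lay on opposite sides of control in OA. PSME1 was at 1865, 1686 and 1742 in control, YA and OA, 0.934-fold of control in OA (0.874 to 0.999), so it was highest in control. PSME2 was at 1262, 1161 and 1458, 1.16-fold of control in OA (1.07 to 1.25), so it was highest in OA. The products of both genes join in 1 ring. PSME3, which forms the nuclear activator PA28 gamma, was at 4987, 4595 and 5196, and PSME4, the PA200 activator, at 3311, 3496 and 3788. PSMF1, the inhibitor PI31, ran the other way from the core, at 2563 (control), 2659 (YA) and 2181 (OA), 0.851-fold of control in OA (0.802 to 0.902). It was 1 of the 2 members whose interval in OA lay wholly below 1, the other being PSME1.

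The assembly chaperones mostly lay near control in OA, with PSMD10 the only 1 of the 7 whose interval left out 1. The 4 chaperones of the 20S core, PSMG1 to PSMG4, stood at a median of 0.08 (log2, OA against control) with 0 intervals away from 1, and PSMG2, at 447, 454 and 403 in control, YA and OA, was lowest in OA. Among the 19S chaperones, PSMD5 was at 1787, 1766 and 1763 and PSMD9 at 82.9, 84.1 and 81.9, each within 3% across the libraries. PSMD10, also known as gankyrin, was at 642, 601 and 761, 1.19-fold of control in OA (1.06 to 1.32). POMP, the maturation factor of the core, is outside the symbol rule and was at 2064, 1969 and 1798, 0.871-fold of control in OA (0.817 to 0.930).

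**Figure D5:**
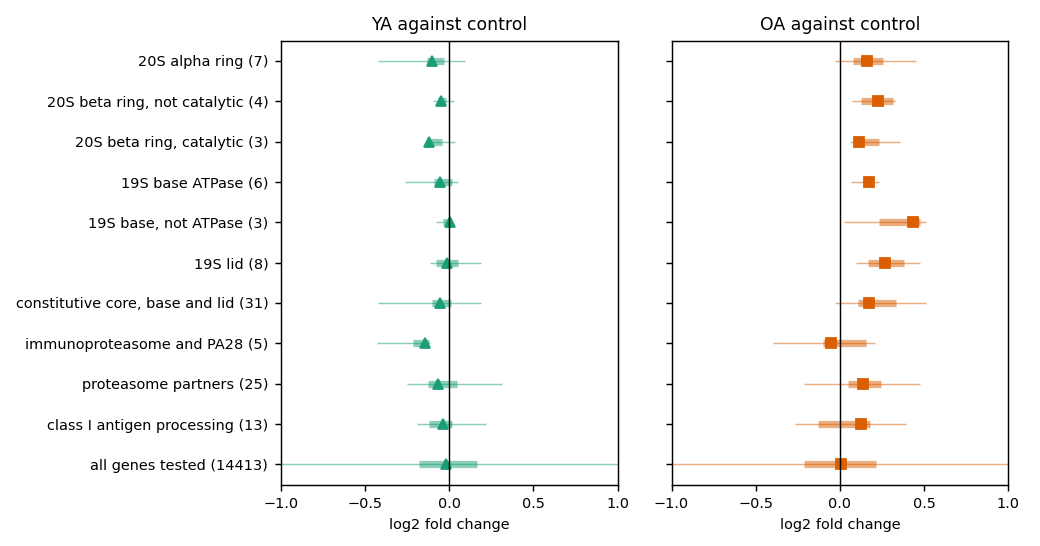
Median log2 fold change by role of the members in the comparisons, for YA (left) and OA (right) against control, with thick bars over the middle quartiles and thin lines over the range; lists and all genes tested are added for scale, and the line of all genes runs past the axis and is drawn only to its ends. In OA against control the medians of the non-ATPase base and the lid are 0.43 and 0.27, while that of the immunoproteasome and PA28 genes is -0.05.

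The comparison of YA with control asked the same of the young secretome, and it used the same control library. At 1.2-fold or more, 1 of 46 members was higher and 3 were lower, beside 17.4% and 16.4% of all genes tested. The median log2 fold change was -0.07 over the members and -0.02 over all genes. The log2 fold change was below 0 in 31 of 46 members, beside 7654 of all 14413 genes tested. The interval lay wholly below 1 in 16 members and above 1 in 4, beside 25.6% and 20.6% of all genes. The member higher was PSMG4, a 20S chaperone, at 234, 293 and 259 in control, YA and OA, 1.25-fold of control in YA (1.06 to 1.49). The 3 lower were PSMB10 at 0.741-fold (0.547 to 0.9997), PSMA2 at 0.740-fold (0.450 to 1.21) and PSMC5, a base ATPase, at 0.832-fold (0.793 to 0.873).

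PSMC5 was the well-counted member most apart in YA, at 3493 (control), 2905 (YA) and 3660 (OA). The other ATPases ran from -0.10 to 0.05 (log2) in YA against control. PSMC5 shares 27.2% of its transcript with FTSJ3 on the opposite strand, so part of its counts cannot be assigned without strand. After PSMG4, the highest members in YA were the lid genes PSMD3, 1.14-fold (1.09 to 1.19), and PSMD8 at 4212, 4776 and 4741, 1.13-fold (1.09 to 1.18). For PSMD8 the YA to OA ratio was 1.01 (0.967 to 1.05). All 5 immunoproteasome and PA28 genes were below control in YA, with a median log2 fold change of -0.15. The interval lay below 1 in 4 of 5, beside 25.6% of all genes. YA was their lowest library in 5 of 5, beside 34.4% of all genes. Centred on transcript length and GC content, the 5 ran from -0.41 for PSMB10 to -0.03 for PSMB9 (log2), with a median of -0.14.

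The comparison of YA with OA asked where the 2 secretomes differed, and it uses the YA and OA libraries already set against control above. At 1.2-fold or more, 1 of 46 members was higher in YA and 19 were lower, beside 23% and 21.5% of all genes. The 19 were 41.3% of the members tested, and they became 10 when fold changes were centred on transcript length and GC content. The median log2 fold change was -0.24 over members and -0.01 over all genes, and the constitutive median was -0.27. Of the 31 constitutive subunits, 30 were lower in YA than in OA, beside 7421 of all 14413 genes tested. The member higher in YA was PSMF1, 1.22-fold (1.15 to 1.29). The largest gaps were those of PSMD2, 0.664-fold in YA (0.638 to 0.690), PSMA2, 0.687-fold (0.413 to 1.13), and PSMD7, 0.712-fold (0.669 to 0.757).

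The interval also lay below 1 in 17 of the 19, beside 17.6% of all genes, and above 1 for PSMF1, beside 18.4%. The 17 were PSMD2, PSMD1, PSMD7, PSMD11, PSMD12 and PSMD14 of the base and lid, the ATPases PSMC2 and PSMC5, PSMA3, PSMA4 and PSMA5 of the alpha ring, PSMB2, PSMB3 and PSMB6 of the beta ring, the chaperone PSMD10, and the immunoproteasome and PA28 genes PSMB9 and PSME2. Of them, 9 are among the 11 members past 1.2-fold in OA against control. In YA against control, 6 of them had an interval below 1 too. PSMC5 was at 0.832-fold there, and PSMA4, PSMA5, PSMD2, PSMD12 and PSME2 ran from 0.907-fold to 0.947-fold.

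Further genes of the pathway were taken as 3 lists. Of 25 proteasome partners outside the symbol rule, all tested, 6 were at least 1.2-fold higher in OA than in control with an interval above 1 and 0 were lower, beside 16.6% and 16.7% of all genes, and the median log2 fold change was 0.14. NPLOC4, a cofactor of the unfoldase VCP, was at 3814, 3780 and 4892 in control, YA and OA, and UBQLN1, a shuttle that carries ubiquitinated proteins to the proteasome, at 4922, 5008 and 6269. ADRM1, a ubiquitin receptor of the base, was at 2229, 2118 and 2766, 1.24-fold of control in OA. UCHL5, the deubiquitinase bound by ADRM1, was at 3603, 3227 and 4276, 1.19-fold. OA was the highest library for 17 of the 25 partners, these 4 among them, beside 38.5% of all genes. In YA against control 1 partner was higher and 0 lower by the same criteria, beside 12.7% and 12% of all genes, and in YA against OA 0 were higher and 9 lower, beside 18.4% and 17.6%.

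Of 13 genes of MHC class I antigen processing, 1 was higher and 1 lower in OA than in control by the same criteria, beside 16.6% and 16.7% of all genes. TAP1, a peptide transporter that neighbours PSMB9, was at 563, 569 and 685, 1.22-fold of control in OA (1.08 to 1.36). HLA-C was at 2930, 2692 and 2430, 0.830-fold (0.785 to 0.877). B2M, the class I light chain, was at 11572, 10130 and 12740, and HLA-E at 2288, 2584 and 2068. In YA against control 0 were past these criteria in either direction, beside 12.7% higher and 12% lower of all genes. In YA against OA HLA-E was the 1 higher and B2M and TAP1 the 2 lower, beside 18.4% and 17.6%.

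Of 14 regulators, 13 were tested, and 6 were higher and 1 lower in OA than in control by the same criteria, beside 16.6% and 16.7% of all genes. NFE2L1, the factor known for raising constitutive proteasome genes, was at 5925 (control), 6897 (YA) and 8121 (OA), 1.37-fold in OA (1.32 to 1.42), and its relative NFE2L3 at 1225, 1018 and 1834, 1.497-fold (1.39 to 1.61). NFE2L1 is cleaved by the protease DDI2 before it acts, so its transcript level does not measure its activity. DDI2, named after its values were seen, was the regulator lower in OA, at 1251, 1129 and 1019, 0.814-fold of control (0.748 to 0.887). IRF1, which drives immunoproteasome genes after interferon, was at 291, 419 and 492, 1.69-fold of control in OA (1.46 to 1.96) and 1.44-fold in YA (1.24 to 1.67). The NF-kB genes RELB, at 279, 262 and 694, and NFKB2, at 1844, 2280 and 3911, had the largest fold changes of the list in OA. PSMB8, PSMB9 and PSMB10 were between 0.757-fold and 1.11-fold of control in the same OA library, with intervals that included 1. Whether any of these regulators bears on the levels of the members was not tested.

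Genes whose symbols begin like those of the members but that fall outside the rule numbered 37, of which most were pseudogenes. Antisense transcripts with appreciable counts were PSMA3-AS1 with 448, 525 and 322 counts (control, YA, OA), PSMD5-AS1 with 180, 176 and 92, and PSMG3-AS1 with 57, 34 and 17. Reads of a gene and its antisense partner cannot be told apart where strand was not used, and the use of strand was not given in the sources used here. PSMA3, which lies beside the first of these, had 1499 counts in control and 1595 in OA.

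Fold changes across all genes varied with transcript length, with a median log2 fold change in OA of 0.06 in the shortest 10% of genes and -0.01 in the longest. In YA against control the same medians were -0.07 and 0.00, and in YA against OA they were -0.14 and 0.04, beside the constitutive median of -0.27 there. Over the 46 members the Spearman correlation of length with the OA log2 fold change was 0.24, a description over genes that share libraries and depth. The 11 members past 1.2-fold in OA had a median length of 2158 bases, beside 1546 for the others. The members past 1.2-fold were thus longer in the median than the rest, although PSMB3 is among the shortest.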

How the data were processed

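The authors deposited whole-number counts per gene for 3 poly(A) libraries of A375 cells, control, YA and OA, with 1 library per group, and the 3 columns were read as the deposited titles name them. Per the submitters' processing notes, reads were handled with STAR 2.5.1b, featureCounts and R 3.6.1 on hg38, with no roles given. The annotation release and the use of strand are not given in the sources used here, so counts of overlapping, antisense or near-identical genes are uncertain. Every row of the table named a gene.

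Scaling used DESeq2 1.42.0 (R 4.3.3), whose size factors are medians of ratios. A pseudocount of 1 was added to both normalised counts of a log2 fold change and none for linear ones. The 14413 genes whose mean normalised count reached 20 were tested and held 99.7% of counts. The study's cutoff of 1.2 was read as a linear fold change. Each fold change has a 95% Clopper-Pearson interval and each share a 95% Wilson interval, and a count of 0 was read against a floor of 3 counts per library. These cover counting error only, since reads amplified without molecular identifiers can repeat a molecule. With 1 library per group no replicate test was possible, and the share of all tested genes past the same criterion is given in its place.

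Lengths, positions and overlapping exons came from GENCODE 29 on GRCh38, which matched 57433 of 58037 identifiers, and promoters from RefSeq on GRCh38.p14. Members, roles and lists were chosen with earlier results of these data known. Every member was to be named. Values were given for the immunoproteasome, PA28 and catalytic genes, for members at least 1.2-fold apart with an interval that leaves out 1, for the 3 highest and 3 lowest per comparison, and for up to 5 genes of each further list; other members with values were chosen after these were seen. A partner and a marker gene that these choices include are not reported here. Alternatives were edgeR 4.0.16 TMM and total-count scaling, other filters, a pseudocount of 5, other thresholds, summed counts and lengths. The computation was tested on simulated counts. Other steps ran in Python 3.11.15 (scipy 1.17.1, pandas 2.3.3, numpy 2.4.6, matplotlib 3.10.9).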

Additional observations from a re-analysis of the deposited data

How the results depend on the processing

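Under TMM scaling, total-count scaling, no filter and a pseudocount of 5, every count of members at 1.2-fold stayed within 1.5 times its value, and the constitutive median in OA against control ran from 0.16 to 0.21 over all alternatives. The counts followed the threshold. With the interval wholly beyond 1 as the criterion 4 members were higher and 16 lower for YA against control, 29 and 2 respectively for OA, and 33 lower when YA was set against OA. At 1.5-fold the count was 0 in both directions for either secretome against control, and 0 higher and 1 lower, PSMD2, for YA against OA. A minimum mean of 100 left 1 lower in YA and 0 lower in OA against control, as PSMA2 and PSMB10 were no longer tested, and leaving out the members that share over 40% of their bases gave the same 1 and 0. Centring on transcript length and GC content, added with the former after the data had been seen, gave 2 higher and 10 lower in YA against OA and a constitutive median of 0.01 in YA against control. The cause was not tested. The immunoproteasome and PA28 median in OA, -0.05, was 0.05 with the minimum of 100 or without the overlapping members, 0.02 for summed counts and -0.13 when centred on length and GC content, so its sign is not settled. No paired analysis was possible because each group has 1 library, and no library could be left out. Low counts of PSMA2, PSMB10, PSMD9 and PSMA1 limit their fold changes.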
